A study of Mus musculus with 2 samples.

Results

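The 10 genes described here belong to the Notch pathway and the Hes family and were followed in single adult mouse neural stem/progenitor cells (NSPCs). They were the ligand genes *Dll1*, *Dll3* and *Jag1*, the receptor genes *Notch1*, *Notch2* and *Notch3*, and the genes *Hes1*, *Hes5*, *Hes6* and *Hey1*, which encode basic helix-loop-helix proteins. They were chosen by name, and all 10 of the 10 were found among the 15046 genes counted. The cells came from the subventricular zone (SVZ) of male C57/Bl6 mice of 6 to 8 weeks, were grown as neurospheres for at least 5 passages and then as a monolayer with 20 ng/ml EGF and 20 ng/ml FGF-2, and were not treated otherwise. All cells, low and high, belonged to 1 line that stably carries a retroviral fusion of the lipid droplet coat protein PLIN2 to GFP, made from pooled mice. The 25% of cells with the lowest and the 25% with the highest GFP signal were sorted into 384-well plates and sequenced by SORT-seq, a method in which each well has its own barcode and each captured molecule a unique molecular identifier (UMI). Whether the pathway genes differ between cells with few and with many lipid droplets was asked on 2 plates, of 95 low and 84 high cells on plate 1 and of 72 low and 53 high cells on plate 2.

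In Notch signalling, a ligand on 1 cell binds a receptor on its neighbour. The receptor is then cleaved, and its intracellular domain enters the nucleus. There it joins the DNA-binding protein RBPJ and switches on Hes and Hey genes such as *Hes1*, *Hes5* and *Hey1*. Their products repress genes of neuronal differentiation, so that neighbouring progenitors can hold unequal amounts of ligand, and in the adult SVZ the pathway is known for keeping stem cells undifferentiated.

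A cell had between 1170 and 34630 UMIs. High cells were deeper, with medians of 11709 against 7856 UMIs on plate 1 and of 14729 against 11955 on plate 2. The endogenous and fused *Plin2*, which could not be told apart here, had 21.8 and 21.8 counts per 1000000 UMIs (CPM) in low and 77.3 and 45.6 in high cells of plates 1 and 2. The NSPC markers, 7 of 7 in the count table, summed to between 6608 and 6763 CPM in the 4 groups, and the 5 astrocyte markers to between 123.6 and 193.4 CPM. Of the astrocyte markers, *Aldh1l1* and *Slc1a2* were each found in 42.1% of cells, *S100b* in 7.57% and *Aqp4* in 4.61%. *Gfap* had 1.5 UMIs in all cells. None of 5 microglial markers was analysed here. On each plate the 2 categories lay in different rows of wells (0 rows held both), so the row and the category cannot be told apart, and 59 well barcodes occurred on both plates because the plates share their primers. Both plates were filled from that single line, so they do not stand for separate mice. Most p-values below come from fits with the plate as a block, which takes out the level of each plate. They measure the spread that is left, which may be technical. For high against low cells they rest largely on counting error and a spread pooled over genes. They hardly reflect how far the difference of a single gene varied from plate to plate.

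The start regions of the 2 genes that passed the test below are shown because the E-box CAGCTG, a sequence read by basic helix-loop-helix factors, is found in both. The letters are from RefSeq on GRCm38.p6, 5′ to 3′ on the minus strand, and the capitals mark the E-box. For *Dll1* the 250 bases lie at chr17:15376933-15377182, before the more distal of 2 annotated starts, and for *Dll3* (chromosome 7) the last 30 bases before the start at 28301785 are given.
Dll1: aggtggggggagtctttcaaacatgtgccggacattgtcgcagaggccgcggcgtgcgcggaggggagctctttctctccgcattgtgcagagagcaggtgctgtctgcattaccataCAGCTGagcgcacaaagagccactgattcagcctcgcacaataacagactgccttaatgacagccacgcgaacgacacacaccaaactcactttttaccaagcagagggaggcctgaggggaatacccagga
Dll3: aaatataagactccggcatccagCAGCTGc
The E-box began 7 bases before the start of *Dll3* and farther upstream at *Dll1*. It was present in 13.001% of all 32851 RefSeq promoters of 250 bases, and also upstream of *Jag1* and of both starts of *Hes6*. It was not found in the windows of *Hes5*, *Notch1*, *Notch2* and *Notch3* or before the proximal start of *Dll1*. These are matches of letters and not measured binding sites.

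The genes differed widely in level. Since SORT-seq counts the 3′ end of each molecule once, levels are given as CPM and are not divided by the length of the transcript. Over all cells, *Hes6* was highest with 192.1 CPM, followed by *Hes1* with 147.7, *Notch3* with 108.5, *Notch1* with 89.8, *Dll1* with 55.1 and *Hey1* with 46.4. *Jag1* followed with 25.4, *Notch2* with 15.1, *Hes5* with 13.6 and *Dll3* with 12.7. Over the 4 groups of plate and category, the ranges of neighbours in this order overlapped, except that *Hey1* (36.9 to 69.4) lay above *Jag1* (17.5 to 35.99). Together the 10 genes held 2449 UMIs, 0.0706% of all.

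Most cells had few molecules of any of these genes. At least 1 UMI of *Hes6* was found in 73.7% of cells, of *Notch3* in 59.9%, of *Hes1* in 54.3% and of *Notch1* in 53.6%. *Hey1* was found in 35.9% of cells, *Dll1* in 31.9%, *Jag1* in 20.1%, *Notch2* in 14.5%, *Dll3* in 9.54% and *Hes5* in 8.55%. Thus *Hes5*, which together with *Hes1* is a classical effector of Notch in neural progenitors, was found in 26 cells.

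**Figure D1:**
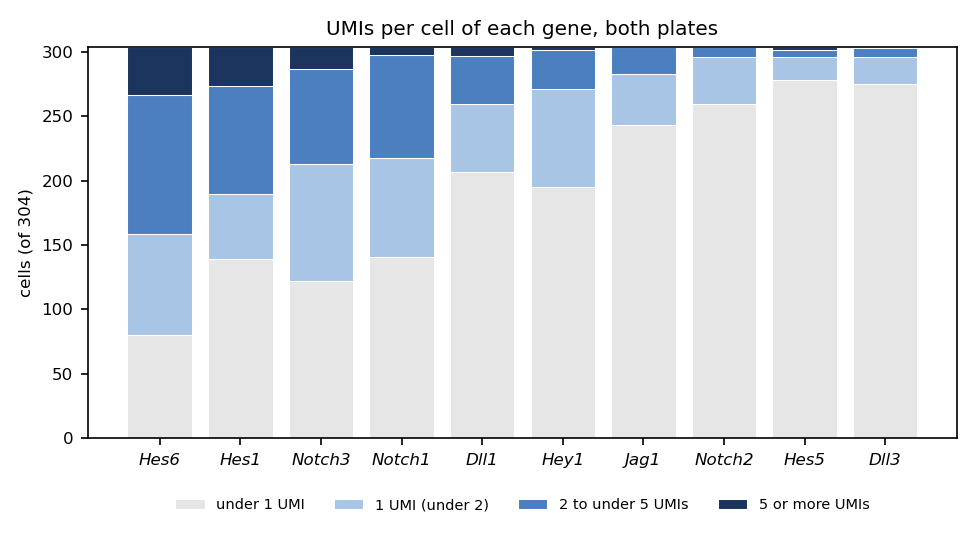
Number of cells (y axis) with under 1, 1, 2 to under 5, and 5 or more UMIs of each gene (x axis, in the order of their levels), both plates together. *Hes6* had 5 or more UMIs in 37 cells and *Hes1* in 30, whereas *Jag1* and *Notch2* had them in 0 cells.

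The molecules of some genes were concentrated in few cells. The 5 cells with the most UMIs of *Hes5* held 46.8% of its molecules, and those of *Dll3* held 38.6%, against 9.64% for *Notch1* and 8.51% for *Notch3*. With every cell drawn down to 5000 UMIs, the variance divided by the mean was 3.44 for *Hes5*, 3.42 for *Dll3*, 2.11 for *Dll1*, 1.63 for *Hes1* and 1.51 for *Hes6*. It was 1.02 for *Notch1*, 1.05 for *Notch2* and 1.11 for *Notch3*, close to the value of 1 that counting alone gives. The means of these thinned counts were low, 0.0695 UMIs per cell for *Notch2* to 0.517 for *Notch3*. At such means the ratio can stay near 1 where levels differ mildly between cells, so that it does not show an even spread. The ratio was 1.18 for *Jag1* and 1.21 for *Hey1*, at means of 0.108 and 0.193. A low mean alone does not hold the ratio near 1, as *Dll3* had its 3.42 at a mean of 0.0656. Before thinning, 1 cell held 9 of the 44 UMIs of *Dll3*.

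The ligand genes *Dll1* and *Dll3* had lower levels in NSPCs with high PLIN2-GFP than in those with low PLIN2-GFP, and they were the only members of the 10 that passed the test. In edgeR's quasi-likelihood test on counts summed per plate and category, with the plate as a block, 8372 genes were tested, of which 1.25% were called lower and 0.884% higher at an adjusted p (Benjamini-Hochberg) under 0.1. All 10 members were tested, 2 were called lower and 0 higher. The median log2 fold change of the 10 was 0.14, against a median of 0.00 over all genes tested.

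*Dll1* encodes Delta-like 1, a ligand that activates receptors on neighbouring cells. It had 82.3 and 76.99 CPM in low cells and 26.2 and 41.1 in high cells of plates 1 and 2, that is 79.6 ± 3.8 against 33.7 ± 10.5 (mean ± SD, n = 2 plates). Both high values lay below both low values. The log2 fold change was -1.33 (SE 0.25, adjusted p = 4.09e-05 by edgeR). Taken singly, plate 1 gave -1.64 and plate 2 gave -0.92. On counting error alone, the ratio of high to low was 0.319 (95% interval 0.196 to 0.506) on plate 1 and 0.534 (0.339 to 0.827) on plate 2. *Dll1* was found in 31.6% and 44.4% of low cells and in 21.4% and 32.1% of high cells, although the high cells were deeper. At 5000 UMIs per cell the shares were 19.4% and 26.6% in low against 6.85% and 18.0% in high cells. Its gene lies on chromosome 17 from 15367354 to 15376872 on the minus strand and overlaps the antisense *A930024N18Rik*, which was not counted separately.

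*Dll3* encodes a divergent ligand that does not activate receptors on neighbouring cells. It was rare, with 20 and 13 counts in low cells and 10 and 1 counts in high cells of plates 1 and 2. As levels, these were 24.9 and 15.2 CPM in low cells against 9.72 and 1.29 in high cells, so that the groups did not overlap. The log2 fold change was -1.86 (SE 0.49, adjusted p = 0.0153 by edgeR). The ratio of high to low was 0.390 (95% counting interval 0.163 to 0.872) on plate 1 and 0.0848 (0.00199 to 0.564) on plate 2. A single low cell of plate 1 held 9 of the 20 counts, and without it the log2 fold change was -1.37 and was no longer called (adjusted p = 0.220). The share of cells with *Dll3* was 9.47% and 12.5% in low and 11.9% and 1.89% in high cells, so on plate 1 it was not smaller in high cells. *Dll3* (chromosome 7, 28293553 to 28302238) overlaps no other annotated gene.

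*Jag1*, whose product Jagged 1 belongs to the other family of Notch ligands, was higher in high cells on both plates but did not pass the test. It had 17.5 and 18.7 CPM in low and 29.2 and 35.99 in high cells. Both high values were above both low values. The log2 fold change was 0.78 (SE 0.34, adjusted p = 0.336 by edgeR), and it was 0.12 in thinned cells. The gene lies on chromosome 2 from 137081456 to 137116644.

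**Figure D2:**
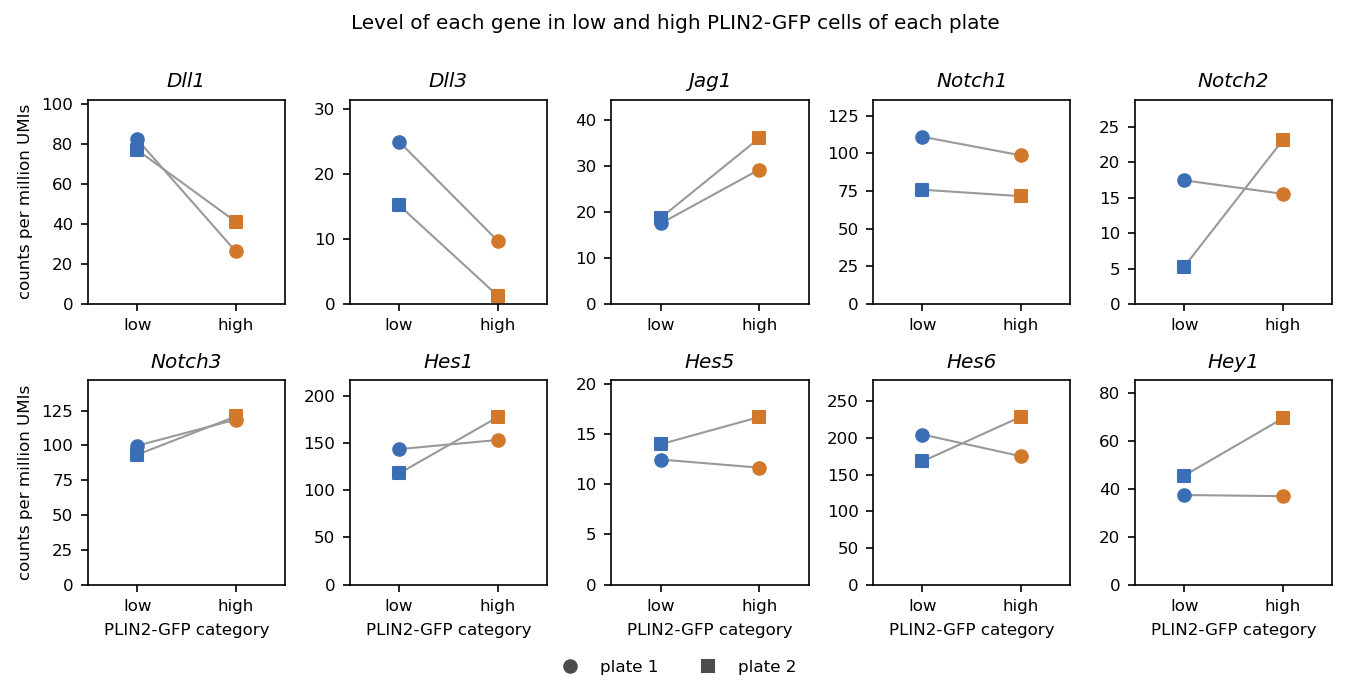
CPM (y axis, from 0) of each gene in low and high PLIN2-GFP cells (x axis) of plate 1 (circles) and plate 2 (squares), a line joining the groups of 1 plate. *Dll1* and *Dll3* fall on both plates and *Jag1* is higher in the high group of both, whereas *Notch2*, *Hes5*, *Hes6* and *Hey1* go in opposite directions on the plates.

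None of the receptor genes passed this test. *Notch3* had 99.8 and 93.3 CPM in low and 118.6 and 120.8 in high cells, with a log2 fold change of 0.24 (SE 0.17, adjusted p = 0.691 by edgeR). *Notch1* had 110.98 and 75.8 in low and 98.6 and 71.5 in high cells, with a log2 fold change of -0.19 (SE 0.19), so that it differed more between the plates than between the categories. *Notch2*, with 17.5 and 5.25 in low and 15.5 and 23.1 in high cells, went in opposite directions on the plates (-0.21 and 1.60), and its log2 fold change of 0.64 had an SE of 0.43. *Notch1* lies on chromosome 2 (26457903 to 26516663), *Notch2* on chromosome 3 (98013527 to 98150361) and *Notch3* on chromosome 17 (32120820 to 32166852). Each overlaps other annotated genes, and since the strand used in counting was not given in the sources used here, reads of such genes could be mixed.

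The Hes and Hey genes did not pass the test either. *Hes1*, a repressor that is switched on by Notch, had 143.6 and 117.8 CPM in low and 153.3 and 177.4 in high cells. The lower high value exceeded the higher low value by less than the plates differed, and the log2 fold change was 0.27 (SE 0.16, adjusted p = 0.552 by edgeR). On single plates it was 0.024 and 0.53, and in thinned cells it was 0.59 (SE 0.23, adjusted p = 0.280 by edgeR), larger but not called either. *Hes1* was nonetheless found in more of the deeper high cells, 65.5% and 64.2% against 42.1% and 50%, and at 5000 UMIs per cell in 47.9% and 42% against 31.9% and 29.7%.

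*Hes6*, which encodes an inhibitor of HES1 that promotes differentiation, had 204.5 and 167.98 CPM in low and 174.9 and 228.8 in high cells. Its groups overlapped, with a log2 fold change of 0.04 (SE 0.14). *Hey1*, another target of the pathway, had 37.4 and 45.5 in low and 36.9 and 69.4 in high cells (0.27, SE 0.26), and *Hes5* had 12.5 and 13.998 in low and 11.7 and 16.7 in high cells (0.03, SE 0.44). For *Hes5* the SE allows changes in either direction of a size near that of *Jag1*. *Hes1* lies on chromosome 16 (30064384 to 30067796), *Hes5* on chromosome 4 (154960923 to 154962371), *Hes6* on chromosome 1 (91411483 to 91414038) and *Hey1* on chromosome 3 (8663359 to 8667256).

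**Figure D3:**
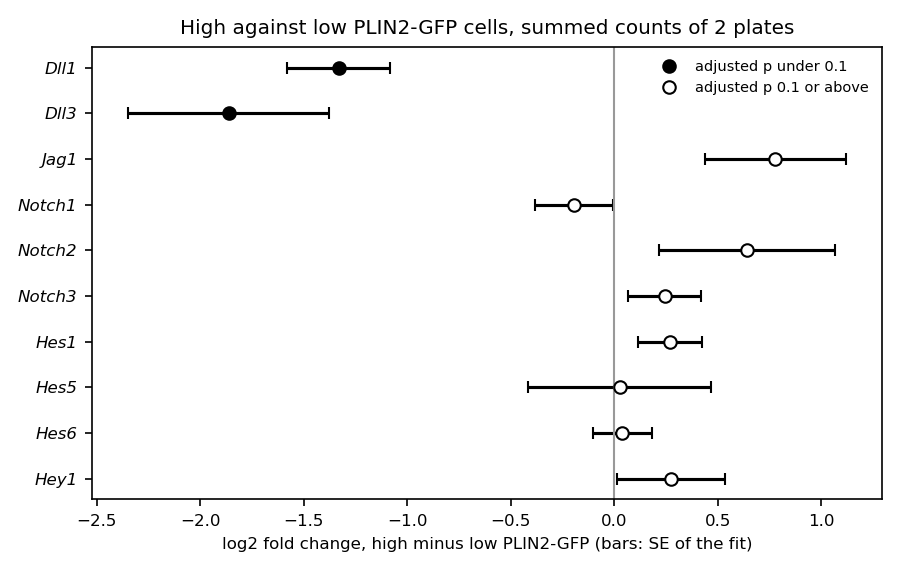
Log2 fold change of high against low PLIN2-GFP cells (x axis, bars are the SE of the edgeR fit) for each gene (y axis); filled circles have an adjusted p under 0.1. *Dll1* at -1.33 and *Dll3* at -1.86 are filled, and the other 8 genes lie between -0.19 and 0.78.

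The calls of *Dll1* and *Dll3* depended on the model. Without the plate as a block the adjusted p was 0.252 for *Dll1* and 0.914 for *Dll3* (edgeR), at log2 fold changes of -1.33 and -1.77, and of all genes tested 1 was called. With DESeq2 both had an adjusted p of 0.99978 at -1.33 and -2.23, with unadjusted p of 0.00833 and 0.0464. In thinned cells *Dll1* had -1.19 (adjusted p = 0.127 by edgeR), and in cells in G1 phase -0.61 (adjusted p = 0.646 by edgeR). Among the high G1 cells of plate 2, 1 cell held 10 of the 17 counts of *Dll1*. With phase as a term *Dll1* stayed called (-1.31, adjusted p = 0.00688), and *Dll3* was too rare to be tested in thinned cells, in G1 or with phase.

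Of 66 other genes of the pathway, 44 could be tested between high and low cells, and 0 were called in either direction by edgeR. Of all 8372 genes tested 2.14% were called, so 0 calls in a list of this size does not show that its genes were unchanged. The 44 included 1 ligand, 8 genes of receptor cleavage, 4 of receptor glycosylation, 10 of trafficking and ubiquitination, 13 of the nuclear complex and 7 other targets and partners of Hes proteins. The smallest p among them was that of the ligand gene *Dner* (log2 fold change -0.48, SE 0.18, adjusted p = 0.209 by edgeR). Among the NSPC markers 1 of 7 was called, *Vim*, which encodes the intermediate filament protein vimentin and was lower in high cells (-0.22, adjusted p = 0.0400 by edgeR).

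The phase of the cell cycle was compared next, since *Hes1* and *Dll1* are known to vary over time in cycling progenitors. The deposited phases put 81, 41 and 57 cells of plate 1 and 51, 36 and 38 cells of plate 2 in G1, S and G2/M. None of the members is among the genes of the phase scores. In a fit over 12 sums of plate, category and phase, 5399 genes were tested, among them 6 members (*Hes1*, *Hes6*, *Hey1*, *Dll1*, *Notch1* and *Notch3*), and the other 4 were too rare. In S against G1, 9.91% of genes were called higher and 7.65% lower, and 0 of the 6 members. In G2/M against G1, 11.4% were called higher and 11.1% lower, and 1 of the 6 members was called, *Hes6*, a share of members near that of all genes.

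*Hes6* was lower in G2/M than in G1. It had 234.6 and 228.9 CPM in G1, 182.5 and 193.8 in S and 132.6 and 168.6 in G2/M of plates 1 and 2, which is 231.7 ± 4.0, 188.2 ± 8.0 and 150.6 ± 25.4 (mean ± SD, n = 2 plates). On both plates the level was highest in G1 and lowest in G2/M. The log2 fold change of G2/M against G1 was -0.70 (SE 0.17, adjusted p = 0.0018 by edgeR), and that of S against G1 was -0.39 (SE 0.16, adjusted p = 0.118). Without plate 1 the fall in G2/M was no longer called (-0.48, adjusted p = 0.280). Cells in G1 had the fewest UMIs (medians of 8290 and 9825) and those in S the most (10994 and 15301).

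None of the other 5 members tested was called between phases in this fit. *Notch3* had 134.2 and 102.99 CPM in G1 and 87.9 and 92.8 in G2/M (log2 fold change -0.50, SE 0.21, adjusted p = 0.102 by edgeR), just short of the threshold. *Hes1* had 174.6 and 144.9 in G1 and 123.5 and 142.04 in G2/M (-0.34, SE 0.23, adjusted p = 0.352), and in thinned cells this difference was -0.99 and called (adjusted p = 0.0119). *Jag1*, too rare for the test, had 36.5 and 32.4 in G1 and 9.95 and 15.2 in G2/M, 6 and 8 counts, so the groups did not overlap. *Notch2*, also too rare, had 26.1 and 23.2 in S against 15.6 and 9.54 in G1 and 9.95 and 7.58 in G2/M, again without overlap of S with the other phases. These levels of *Notch2* rested on 12 and 13.5, 12 and 5, and 6 and 4 counts. For neither gene was the separation of 2 values per phase set against that of all genes. *Hes5* had 0 counts in the 41 S-phase cells of plate 1, which allows a share of cells with a UMI of up to 8.60% (exact binomial) and sets no limit on the share that expresses it, and 7 counts in 3 cells in S of plate 2. *Dll1* differed between the plates, with 50.8, 60.8 and 43.1 in G1, S and G2/M of plate 1 and 72.5, 30.9 and 79.5 on plate 2.

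Among the 30 other pathway genes that could be tested, 1 was called higher and 5 lower in S, and 2 higher and 7 lower in G2/M, by edgeR. Of all genes tested 17.6% were called in S and 22.5% in G2/M, so that with both directions together the list's counts are near this background. By direction, 9.91% of all genes were called higher and 7.65% lower in S, and 11.4% and 11.1% in G2/M. Lower calls thus outnumbered higher ones in the list but not among all genes, which was not tested. The genes below are given as single values. *Hdac2*, which encodes a histone deacetylase, was higher in S (log2 fold change 0.63, adjusted p = 0.0247) and in G2/M (0.55, adjusted p = 0.0479). The Groucho family genes *Tle2* (-1.30), *Tle4* (-0.66) and *Tle5* (-0.34), whose products are corepressors of Hes proteins, and *Bhlhe40* (-0.74) were lower in G2/M. *Lfng* (-0.59), which encodes a glycosyltransferase of the receptors, *Dtx1* (-1.07) and the coactivator gene *Maml2* (-1.17) fell there as well. In S, *Tle4* (-0.61), *Maml2* (-0.72), *Dtx1* (-0.85), the cleavage gene *Aph1a* (-0.83) and *Nrarp* (-0.98), a target and feedback inhibitor of Notch, were lower. Of the astrocyte markers tested, 2 of 2 fell in G2/M, and of 6 NSPC markers 1 rose and 1 fell.

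The difference between high and low cells depended on phase for *Hes1* alone among the 6 members. By the interaction of category and phase in edgeR, 5 of 5399 genes (0.0926%) were called, with *Hes1* among them (F = 12.6, adjusted p = 0.0408). In S, *Hes1* had 48.3 and 76.04 CPM in low cells and 202.5 and 218.4 in high cells of plates 1 and 2, and the groups lay far apart. In G1 it had 169.7 and 158.6 in low and 180.2 and 128.04 in high cells, and in G2/M 177.96 and 116.8 in low and 96.04 and 173.04 in high cells, so that both of these phases overlapped. The difference of high and low was larger in S than in G1 by 1.77 on the log2 scale (SE 0.40), and in G2/M it departed from G1 by -0.09 (SE 0.37). The ratio of high to low in S was 4.23 (95% counting interval 2.08 to 9.72) on plate 1 and 2.87 (1.74 to 4.94) on plate 2. In G2/M the plates, as counted, went opposite ways, with 0.533 (0.329 to 0.865) on plate 1 and 1.48 (0.917 to 2.41) on plate 2. On plate 2, however, 1 of the 15 high cells held 16 of their 41 counts, and 1 of the 23 low cells held 10 of 34. The direction without these cells was not computed. As counted, an interval that excludes 1 on a single plate was thus not enough for the other plate to go the same way.

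The low S-phase groups rested on 9 counts in 21 cells and on 21 counts in 18 cells. At 5000 UMIs per cell, *Hes1* was found in 18.8% and 11.8% of low and in 55.6% and 61.1% of high cells in S. The interaction was not called without the plate as a block (adjusted p = 0.626 by edgeR), in thinned cells (0.866), or when the cell with the most *Hes1* was left out (0.173). For the other 5 members it was not called (adjusted p of 0.894 or more).

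Within phases, the lower *Dll1* of high cells was not seen everywhere. On plate 1 its ratio of high to low was 0.459 (G1), 0.148 (S) and 0.370 (G2/M), with 95% counting intervals that all ended below 1. On plate 2 it was 0.166 in G2/M (0.0509 to 0.423), but 1.00 in G1 (0.496 to 1.99) and 1.13 in S (0.400 to 3.28). In G1 of plate 2, however, 1 high cell held 10 of the 17 counts of the high cells, and the ratio without it was not computed. As counted, the difference of *Dll1* on plate 2 was widest in G2/M, in which low cells had 127.1 and high cells 21.1 CPM. The interaction with phase was not called for *Dll1* (adjusted p = 0.908 by edgeR).

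**Figure D4:**
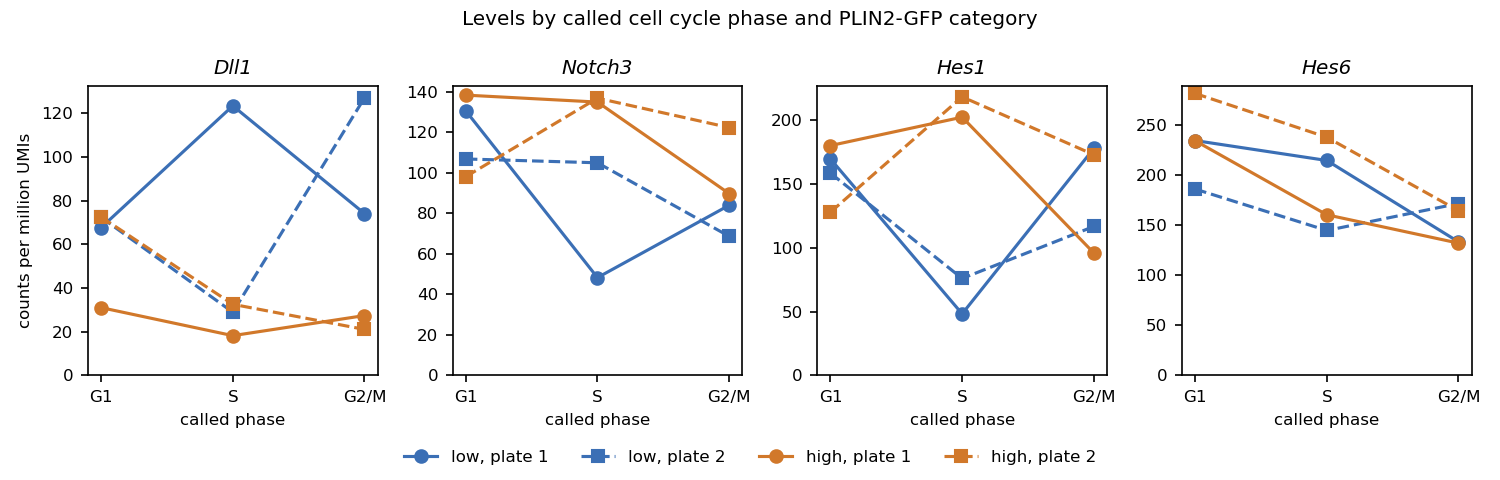
CPM (y axis, from 0) of 4 genes by called phase (x axis), for low (blue) and high (orange) PLIN2-GFP cells of plate 1 (circles, solid lines) and plate 2 (squares, dashed lines). *Hes1* separates the categories in S, *Hes6* is lower in G2/M than in G1 in each of the 4 groups, and *Dll1* differs between the plates in S.

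The deposited clusters were compared as a description only, since they were made from all genes of these cells. High cells were 66.3% and 63.5% of cluster 0 on plates 1 and 2 and 26.4% and 21% of cluster 1. *Dll1* had 21.5 and 34.6 CPM in cluster 0 and 80.998 and 88.5 in cluster 1, and *Dll3* had 8.60 and 1.15 against 24.4 and 16.9. Both Delta-like genes were thus higher in the cluster with fewer high cells. *Hes1* went the other way, with 191.96 and 181.6 in cluster 0 and 104.9 and 106.1 in cluster 1, and *Notch3* likewise, with 144.1 and 121.1 against 75.4 and 89.8. *Hes6* had means of 192.298 CPM in cluster 0 and 192.31 CPM in cluster 1 (SD 11.8 and 0.50, n = 2 plates).

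Within cluster 1, *Dll1* remained lower in high cells, with 101.1 and 95.7 in low and 45.8 and 63.8 in high cells. Within cluster 0 it had 35.03 and 34.4 in low and 17.1 and 34.7 in high cells, so that on plate 2 the levels were nearly equal. That high value of plate 2 rested on 21 counts, of which 1 cell held 10. *Jag1* in cluster 0 had 8.76 and 11.5 in low against 34.2 and 31.4 in high cells, while its values in cluster 1 overlapped (20.9 and 21.8 in low, 18.3 and 52.2 in high). *Hes1* and *Notch3* overlapped between low and high cells within each cluster.

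**Figure D5:**
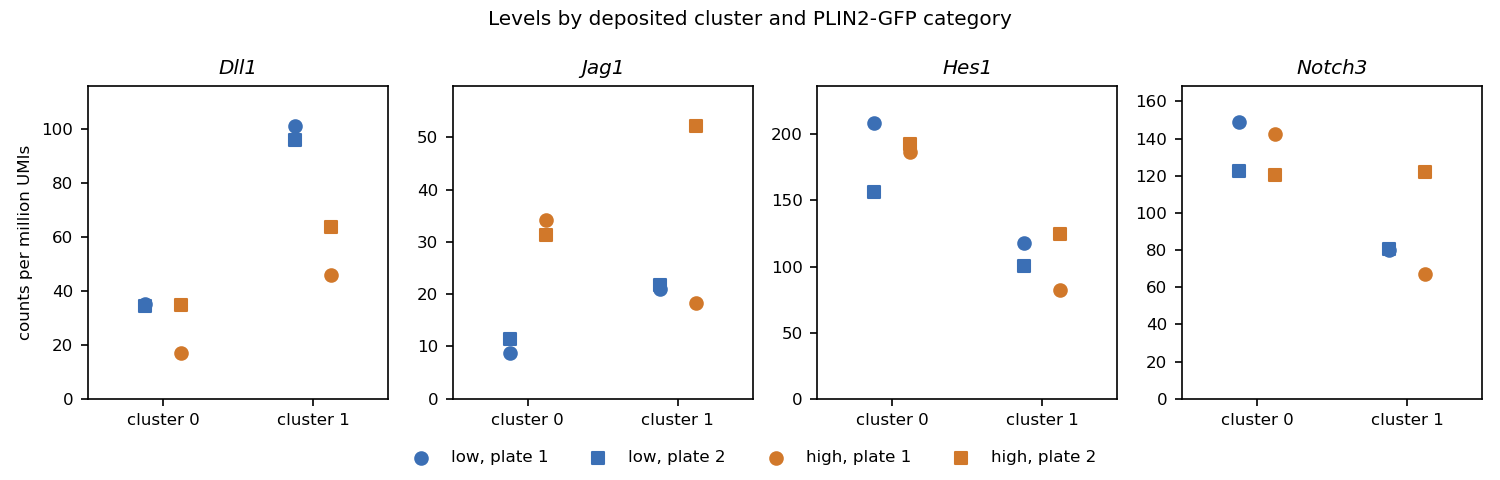
CPM (y axis, from 0) of 4 genes in the 2 deposited clusters (x axis), for low (blue, left) and high (orange, right) PLIN2-GFP cells of plate 1 (circles) and plate 2 (squares). *Dll1* is higher in cluster 1 and *Hes1* in cluster 0. The levels of *Jag1* in cluster 0 do not overlap between low and high cells, but the low ones rest on 2 and 3 counts.

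Across cells, the members were only weakly related to each other. Correlations were computed within each plate over all its cells, on counts corrected for depth, and are given as a description, as cells of a plate share a library and the counts are sparse. Of 45 pairs of members, 20 had the same sign on both plates, and Pearson's r lay between -0.15 and 0.28. *Dll1* and *Dll3* were the only pair above 0.2 on both plates (0.25 and 0.22), but in thinned cells they had 0.10 and -0.06. *Hes6* and *Dll1* had 0.13 and 0.28, with 0.10 and 0.14 in thinned cells. *Hes1* and *Dll1* had -0.08 and -0.05.

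The genes most like each member were taken from a far larger set, so that their values cannot be set against those of the pairs above. For each member found in at least 25% of cells, the 3 genes with the highest smaller r of both plates were taken from 5229 candidates. Those of *Dll1* were *Chd7* (0.48 and 0.36), which encodes a chromatin remodeller, *Btg2* (0.32 and 0.51), which encodes an antiproliferative protein of neurogenic progenitors, and the transcription factor gene *Sox4* (0.46 and 0.29). In thinned cells these were 0.44 and 0.20, 0.34 and 0.40, and 0.43 and 0.17. Those of *Hes6* were the oligodendrocyte lineage factor gene *Olig1* (0.38 and 0.36), *Ckb* (0.29 and 0.37) and *Dbx2* (0.28 and 0.32), with 0.28 and 0.13, 0.29 and 0.21, and 0.27 and 0.14 in thinned cells. *Hey1* was most like *Nrarp* (0.24 and 0.31), also a Notch target, followed by *Sox9* (0.21 and 0.23) and *Rgma* (0.21 and 0.28). In thinned cells *Nrarp* had 0.20 and 0.35, but *Sox9* had 0.057 and 0.061 and *Rgma* 0.048 and 0.20.

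*Hes1* was most like *Igfbp2* (0.29 and 0.29), *Npas3* (0.24 and 0.22) and *Slc25a18* (0.21 and 0.22). In thinned cells *Igfbp2* had 0.32 and 0.20 and *Npas3* 0.21 and 0.26, whereas *Slc25a18* had 0.15 and -0.0060. *Notch3* was most like *Psap* (0.27 and 0.27), *Atp1b2* (0.38 and 0.26) and the glutamate transporter gene *Slc1a3* (0.26 and 0.25), with 0.13 and 0.14, 0.29 and 0.13, and 0.17 and 0.11 in thinned cells. *Notch1* was most like *Csad* (0.23 and 0.39), the mitochondrial ribosomal RNA *mt-Rnr1* (0.22 and 0.26) and *Hsdl2* (0.21 and 0.22). In thinned cells these were 0.041 and 0.17, 0.14 and 0.21, and 0.17 and 0.043. These values are the highest of many and are therefore larger than they would be in other cells.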

How the data were processed

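Reads were assigned by the authors with Salmon and alevin to GRCm38, and they deposited estimated counts (expected counts) of UMIs per gene and cell, without normalization. The versions, the strand setting and the annotation release are not given in the sources used here. In the authors' per-cell table, deposited values include the mitochondrial share as a fraction and in percent and scores for the cell cycle and doublets, with plate, category, phase and cluster. The study kept cells under 20% mitochondrial counts, by which 293 of the 304 deposited cells pass, and removed doublets before deposit, so no doublet caller was run. Count columns and cells were matched on total UMIs together with genes detected, and 0 columns stayed unjoined. Columns of other samples numbered 0.

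Counts were summed per plate and category (4 sums) or per plate, category and phase (12 sums), rounded, and compared in edgeR 4.0.16 under R 4.3.3 (TMM, filter on low counts, quasi-likelihood test, Benjamini-Hochberg over all genes tested, called under 0.1, the level of the study). The plate was a block, because the low and high cells of a number come from the same plate (correlation of their deviations 0.298 over 8372 genes). The block leaves 1 residual degree of freedom in the 4 sums, so that p-values of high against low rest largely on a spread pooled over genes. SEs are |log2 fold change|/√F. CPM are counts of a gene per 1000000 UMIs. Shares of cells count cells with at least 1 UMI, and all intervals (95%, exact) cover counting error only. For thinning, cells were drawn to 5000 UMIs, and 45 shallower cells were left out. Correlations used Pearson residuals of a negative binomial model with a dispersion parameter of 100. The scripts were tested on simulated data. Coordinates are those of GENCODE release M21 on GRCm38, sequences those of RefSeq, in which 8 of the 10 genes had a start region.

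All 10 members are named, with the pathway genes called in a comparison and the 3 genes most like each frequent member. Of the pathway list, 1 gene is not reported here. The members, lists and tests were chosen with earlier results of these data known. The lists of neuron, oligodendrocyte, endothelial and ependymal markers summed to 383 to 522, 34.0 to 54.0, 2.92 to 18.5 and 16.3 to 24.3 CPM over the 4 groups, with *Map2* as the main neuronal gene and *Dcx* and *Tubb3* not analysed here. The alternatives were DESeq2 1.42.0, no block, other normalizations, no filter, thinned cells, a mitochondrial limit, a threshold of 0.05, G1 cells, phase as a term, and plates or sums left out.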

Additional observations from a re-analysis of the deposited data

Results flagged for a closer look

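*Hes1* was flagged because the difference between high and low PLIN2-GFP cells itself differed between phases in a test (interaction of category and phase in edgeR, adjusted p = 0.0408). *Hes1* was higher in high cells in S on both plates and overlapped between the categories in G1 and G2/M. The depth moved with the categories, as high cells had more UMIs, and its part in the result was not tested beyond the thinned cells, in which the adjusted p was 0.866. Groups of 2 plates allow no search for outlying samples.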

How the results depend on the processing

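Of the members, 2 were called between high and low PLIN2-GFP cells. The number was 0 without the replicate block, 0 with DESeq2, 0 in thinned cells, 0 in G1 cells, 1 with phase as a term and 1 when each member lost its cell of most UMIs, an alternative chosen after seeing the data. It was 0 to 1 when each sum was left out without the block, a fit that lends the spread of the paired group to the single sum. It remained 2 with the other normalizations, without the filter, under the mitochondrial limit and at a threshold of 0.05. Of all genes tested 0.884% were called higher and 1.25% lower, and 1.77% and 0.968% with library size only. In all 2.14% were called, against 1 gene without the block, 5 genes with DESeq2, 1.2% in thinned cells, 0.678% in G1 cells and 1.47% at 0.05. On single plates *Dll1* had log2 fold changes of -1.64 and -0.92 and *Dll3* of -1.24 and -2.31. Over 15 tested alternatives the adjusted p of *Dll1* ranged from 4.66e-07 to 0.99978 and its log2 fold change from -1.66 to -0.61, and over 12 that of *Dll3* from 0.00958 to 0.99987 and from -3.87 to -1.09.

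In S against G1, 0 members were called, and 1 (*Hes6*) without the cells of most UMIs. In G2/M against G1 the number was 1, but 2 with DESeq2, 2 over 6 sums, 2 without the filter, 2 in thinned cells, 2 under the mitochondrial limit and 2 without the cells of most UMIs, and 0 to 1 with a plate left out. For S and G2/M the replicate block changed no member's call. For the interaction, 1 member was called, but 0 without the replicate block, 0 in thinned cells and 0 without the cells of most UMIs.

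Members that were not called changed direction as follows, at adjusted p of 0.692 or more. Between high and low, in G1 cells *Hes1* had -0.13, *Hey1* -0.47 and *Notch3* -0.063, in thinned cells *Hes6* had -0.19 and *Notch3* -0.018, and without the cells of most UMIs *Hes5* had -0.49 and *Hes6* -0.056. With a sum left out, the values lay between -0.24 and -0.060 for *Hes5*, between -0.15 and -0.10 for *Hes6*, at -0.23 for *Hey1*, and at 0.027 and 0.14 for *Notch1*. In G2/M *Dll1* had -0.043 over 6 sums, -0.17 with DESeq2, -0.016 without the block and -0.010 to 0.029 with a plate left out, where *Hey1* had -0.31 to 0.75. In S with a plate left out *Dll1* had -1.26 to 0.37 and *Notch3* -0.55 to 0.14. Of 20 shares of cells, as means of the plates, 18 moved on thinning by at least the SD of the 2 plates. When parts of UMIs were counted, 2 moved by that much. Of 55 correlations 12 moved on a log scale and 21 in thinned cells. Depth limits *Hes5*, *Dll3*, *Notch2* and *Jag1*, with under 100 UMIs each. A gene missing in thinned cells or with phase was too rare to be tested, and the cause of the other changes was not tested.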
